A study of Mus musculus with 6 samples.

Results

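The expressed genes of salt-exposed wild-type cells, labelled as collecting duct cells, were described by their probe signal. They came from 3 of the 6 arrays of the series, which are the wild-type arrays. The samples, called WT1, WT2 and WT3 here, held RNA of Hoxb7cre+, R26RtdTomato, Bdkrb2+/+ pups of strain C57BL/6 at postnatal day 1. Cells labelled as collecting duct cells had been sorted by flow cytometry as positive for GFP and dsRED. A diet holding 5% sodium is listed for every sample, which does not show that the pups themselves ate it. The Hoxb7 promoter that drives the Cre works in the ureteric bud and its descendants, of which the collecting duct is the main one. The listed genotype holds a red reporter, and the labels do not say what supplied the green one. The labels describe only matings of floxed animals, and give neither the number of pups per sample nor their sex. No sample without salt was among the arrays, so the values describe cells under salt and not an effect of salt. Biological replicates are named in the series text, and nothing else in the labels says how far their collection was separate.

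Each array was hybridised with 2 dyes, the sample RNA in Cy5 and the RNA of WT1 in Cy3. Signal below is the Cy5 processed intensity on the log2 scale, with the array's 75th percentile over all non-control probes set to 0, so 1 unit is a 2-fold difference in brightness. A gene was taken as detected where a probe was well above background on all 3 wild-type arrays, and was represented by its brightest such probe. This held for 13612 of 20883 named genes (65.2%). A further 6141 genes were above background on no wild-type array and 1130 on 1 or 2 of them. The percentile of a gene is its place among the detected genes, with 100 the brightest. Probes differ in how well they bind, so a brighter probe does not show more transcript.

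The collecting duct fine-tunes the water, salt and acid content of urine. Its principal cells take up water through aquaporins and sodium through the epithelial sodium channel, under the control of vasopressin and aldosterone. Its intercalated cells move acid or base with a vacuolar proton pump, carbonic anhydrases and anion exchangers. The duct grows by branching of the ureteric bud, whose tips carry the receptor Ret, and the tips of a newborn mouse kidney are still close to forming nephrons, stroma and vessels.

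Promoter sequence is shown for 3 of the marker genes and a cell cycle gene to show how far promoters of bright genes on these arrays differed in CG content. The 250 bases before the first annotated start of each gene were taken from RefSeq on build GRCm38.p6 and are written 5′ to 3′ on the gene's own strand, with each CG in capitals. Aqp2, the vasopressin-regulated water channel, has its window at chr15:99578806-99579055 on the plus strand. Fxyd4, a regulator of the sodium pump, has it at chr6:117937336-117937585 on the minus strand. Umod, which encodes the urinary protein uromodulin, has it at chr7:119479263-119479512 on the minus strand. Mki67, which encodes the proliferation antigen Ki-67, has it at chr7:135716380-135716629 on the minus strand.
Aqp2: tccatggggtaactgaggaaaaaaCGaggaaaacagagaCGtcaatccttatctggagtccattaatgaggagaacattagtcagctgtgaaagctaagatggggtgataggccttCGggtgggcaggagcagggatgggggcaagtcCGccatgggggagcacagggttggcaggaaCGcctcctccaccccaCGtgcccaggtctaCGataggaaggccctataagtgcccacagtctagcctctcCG
Fxyd4: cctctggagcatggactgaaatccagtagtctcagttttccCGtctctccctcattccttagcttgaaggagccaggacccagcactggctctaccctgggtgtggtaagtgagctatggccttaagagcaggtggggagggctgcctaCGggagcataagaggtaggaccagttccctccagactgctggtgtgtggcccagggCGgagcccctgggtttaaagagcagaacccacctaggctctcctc
Umod: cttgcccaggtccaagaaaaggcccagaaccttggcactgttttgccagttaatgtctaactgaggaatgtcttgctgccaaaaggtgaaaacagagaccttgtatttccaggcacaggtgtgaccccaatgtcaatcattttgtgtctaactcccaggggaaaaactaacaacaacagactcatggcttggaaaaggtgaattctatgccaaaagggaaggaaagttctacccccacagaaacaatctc
Mki67: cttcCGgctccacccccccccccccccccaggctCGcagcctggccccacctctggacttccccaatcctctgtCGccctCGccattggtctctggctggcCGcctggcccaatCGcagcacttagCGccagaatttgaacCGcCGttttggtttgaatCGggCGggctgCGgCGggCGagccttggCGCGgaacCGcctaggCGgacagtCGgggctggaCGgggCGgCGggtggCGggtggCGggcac

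The motif marked was CG, which reads the same on both strands. TATAAA was also sought on either strand, and the windows of Aqp2, Fxyd4, Umod and Mki67 did not hold it. The windows held 8 CG for Aqp2, 3 for Fxyd4, 0 for Umod and 24 for Mki67. The median was 6 over all 27025 genes of the RefSeq promoter table. Among the brightest 3402 detected genes the median was 17, with a window for 81.6% of them. The proliferation list stood at a median of 19, the principal cell list at 8, and the proximal tubule and the loop and distal tubule lists at 4 each. All detected genes stood at a median of 15, with a window for 79.4% of them. All named genes on the array stood at a median of 11. The lists count detected genes only. The principal cell median lay above that of the whole table but below those of named genes and of detected genes. These counts describe the letters only, and nothing is drawn from them on control of the genes.

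The markers given for the duct and its neighbours were all detected, and lay between the 65.7th and the 99th percentile. Aqp2 gave 3.68, 3.82 and 3.88 on the arrays of WT1, WT2 and WT3 (percentile 85.9). Aqp3, the water channel of the basolateral membrane, gave 5.30, 5.36 and 5.25 (percentile 95.4), and Fxyd4 gave 5.14, 5.27 and 5.35 (percentile 95.2). All 3 of these principal cell genes stayed within 0.21 between arrays. Atp6v1b1, the proton pump subunit of intercalated cells, gave 2.45, 1.71 and 2.33 (percentile 65.7), and the anion exchanger gene Slc4a9 gave 4.04, 3.71 and 4.11 (percentile 87.3). WT2 was the lowest array for both of these intercalated cell genes. Slc4a9 had 2 detected probes, and stood at percentile 70.3 when every gene was taken at its dimmest detected probe. Umod, a gene of the thick ascending limb of the loop of Henle and not of the collecting duct, gave 7.58, 6.62 and 7.67 and was the brightest of the 6 markers (percentile 99).

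**Figure D1:**
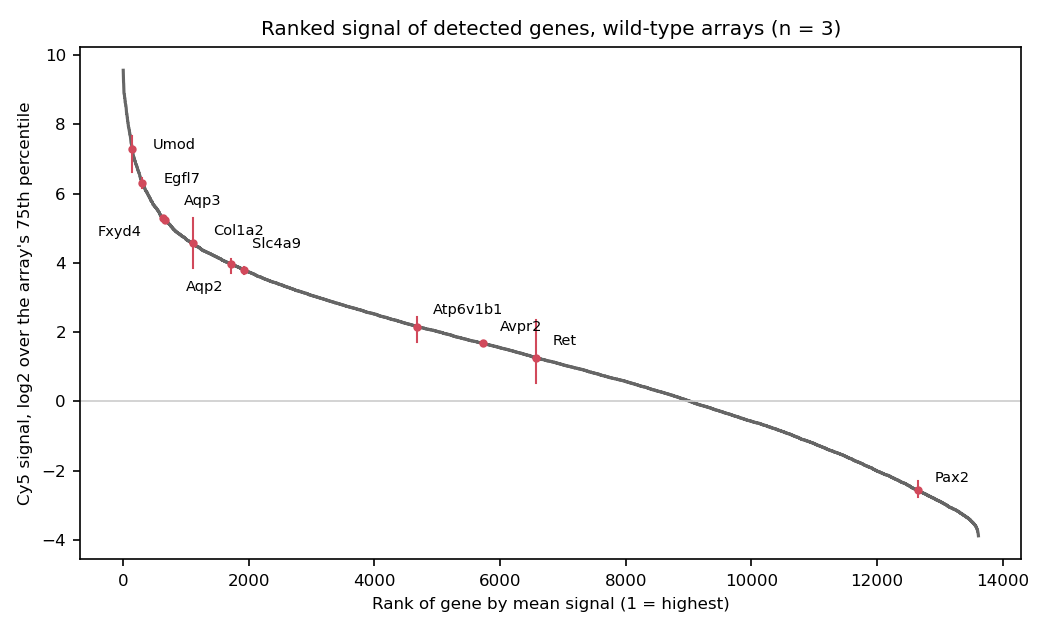
Mean Cy5 signal (log2 over the array's 75th percentile, vertical axis) of the 13612 detected genes against their rank (horizontal axis, 1 is the brightest), with named genes as points and a line from the lowest to the highest of the 3 arrays. Umod lies near the top at the 99th percentile, Aqp2 at the 85.9th and Atp6v1b1 at the 65.7th.

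The signals of detected genes ran from -3.88 to 9.56, with a median of 1.15 and quartiles of -0.69 and 2.83. Between 49.8% and 52.7% of spots were well above background per array, no spot was saturated, and 1 to 6 of 308 negative control spots per array passed the same flag. The arrays correlated across genes with a Pearson r of 0.988 to 0.992, where genes are not independent replicates. The median SD of a gene over the 3 wild-type RNAs was 0.138, against 0.0738 for the single WT1 RNA in Cy3 on the same 3 arrays.

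The brightest genes fell into ribosomal protein genes, cytoskeletal actins and a set whose several probes disagreed. Of the 30 genes of highest signal 10 had ribosomal protein symbols, as did 41 of the top 100. Rpl35 gave 8.82, 9.08 and 8.92, and Rpl37a gave 8.95, 9.29 and 9.05, both proteins of the ribosome. Over all ribosomal protein symbols 88 of 92 were detected, at a median percentile of 99.1. Gene by gene, the median difference of WT2 minus WT1 was 0.23, and 79 of 88 were higher on the array of WT2, as were 50.3% of all detected genes. The WT1 RNA in Cy3 gave 0.17 for the same genes between the same arrays. Respiratory chain and ATP synthase genes, taken by the start of their symbols, were detected for 95.4% of 108 symbols at a median percentile of 96.8. They went the other way, with 99 lower and 4 higher on the array of WT2 than of WT1 (lower in 49.7% of all detected genes) and a median difference of -0.24, where the WT1 RNA in Cy3 gave 0.11.

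Actb and Actg1, the cytoplasmic actins, gave 8.67, 8.85 and 8.86 and 8.64, 8.82 and 8.84. The small RNA gene Rn4.5s gave 8.93, 9.51 and 9.24, and Rn28s1, a ribosomal RNA entry, gave 8.59, 8.88 and 8.80. Tpt1, Fau, Rack1, Rps10, Rps12, Rps14, Rps20, Rpl41 and Rplp0, all tied to translation apart from the multi-purpose protein gene Tpt1, were also among the 30.

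Some of the brightest entries rested on 1 of several probes. Kctd14, the highest of all, gave 9.26, 9.83 and 9.60 from its brightest probe, while its next probe averaged -2.29. Slc10a1, known as a bile acid transporter of liver, gave 9.23, 9.68 and 9.49, while its other probe was above background on 0 arrays. The transcription factor gene Elk1 gave 9.21, 9.65 and 9.41, while its other probe was above background on 2 arrays with a mean of -4.11. Of the top 30 genes 18 had several probes, and in 9 of the 30 the brightest probe lay more than 4 log2 above the next detected one. Besides Kctd14 these were Glrx2, Ttc38, Synrg, Zfp628, Med16, Pbld1, Ndor1 and Fam177a2. The signal rank of these 9 genes rests on 1 probe each, and what those probes bound was not tested. Milr1, with a next probe at 7.57, Medag, with a next probe at 5.19, and Exosc2, with 1 probe, were also among the 30.

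Across the array 5510 genes had several probes and 3402 had several detected. The brightest of these probes lay a median of 1.70 above the next, and 4.50 above it at the 90th percentile. These 2 gaps are the scale against which differences between genes are read below. A further 846 detected genes had another probe under background on all 3 arrays.

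Marker lists of the cell types of the newborn kidney were ranked in the same way. The principal cell list stood at a median percentile of 77.6, with 16 of 18 members detected, where 65.2% of all named genes were. Kcnj1, the potassium channel ROMK, led it with 5.75, 5.09 and 5.95. Tfcp2l1, a transcription factor of duct cells, followed with 5.37, 5.17 and 5.69, then Aqp3, Fxyd4 and the prostaglandin E synthase gene Ptges with 4.80, 4.95 and 4.90. The WT2 array was the lowest for Kcnj1 and Tfcp2l1 and the highest for Ptges. Tfcp2l1 stayed at the 95.4th percentile when every gene was taken at its dimmest detected probe, while Ptges went from 93.7 to 51.9. Scnn1g, the gamma subunit of the sodium channel, and Kcne1, a potassium channel subunit, were above background on no array. Low in the list, and chosen after their values were seen, were Nr3c2, the mineralocorticoid receptor, at -2.93, -3.34 and -2.68, and Hsd11b2, the enzyme that shields it from glucocorticoids, at -0.48, -0.89 and -0.55.

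The intercalated cell list stood at a median percentile of 73.9 with 19 of 20 members detected. Rhcg, an ammonia transporter, gave 5.75, 5.62 and 5.98. The carbonic anhydrase genes Car12 and Car2 gave 5.54, 4.86 and 5.64 and 5.04, 4.37 and 4.90. Foxi1, the transcription factor that specifies intercalated cells, gave 4.57, 4.25 and 4.83, and Rhbg, a relative of Rhcg, gave 4.19, 3.59 and 4.38. WT2 was the lowest array in 19 of 19 detected members, where it was so for 35.9% of all detected genes.

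The ureteric trunk list had 20 of 20 members detected, at a median percentile of 70.9. Cdh16, the kidney cadherin, gave 7.64, 7.55 and 7.85, and the simple epithelial keratin gene Krt18 gave 6.39, 7.01 and 6.72. Hoxb7, whose promoter drives the Cre, gave 4.39, 4.56 and 4.43 (percentile 91.2). Tfap2b and Gata3, transcription factor genes of distal nephron and duct, gave 4.22, 4.01 and 4.31 and 3.80, 4.16 and 3.81. The arrays lay within 0.36 of each other for Gata3 and closer for Cdh16, Hoxb7 and Tfap2b, while WT1 was the lowest for Krt18.

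The ureteric tip list was detected for 13 of 14 members at a median percentile of 56.2, and Sox8 was above background on no array. Etv5 and Etv4, transcription factor genes downstream of Ret, gave 4.62, 5.51 and 4.95 and 3.49, 4.74 and 4.12. Ret gave 0.52, 2.35 and 0.90. WT2 was the highest array in 12 of 13 members, where it was so for 38% of all detected genes. The exception was Rgs2, a regulator of G protein signalling, at 4.15, 3.76 and 4.29. Dusp6, a feedback phosphatase of the same pathway, gave 4.12, 4.63 and 4.28. Taken at the dimmest probe, Rgs2 went from percentile 88.3 to 8.82.

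Markers of cells outside the duct were also detected, several at high signal. The proximal tubule list had 20 of 20 members detected at a median percentile of 73.0. Miox, the inositol-degrading enzyme of the proximal tubule, gave 6.26, 5.26 and 6.24, and the gluconeogenic enzyme gene Fbp1 gave 5.52, 4.60 and 5.26. Kap, Lrp2 and Spp2 stood between percentiles 91.4 and 91.5. Lrp2, the endocytic receptor megalin, gave 4.97, 3.87 and 4.61. WT2 was the lowest array in 18 of 20 members of the list, where it was so for 35.9% of all detected genes. The loop and distal tubule list stood at 52.4 with 16 of 16 detected. Besides Umod it was led by Irx1, a transcription factor gene, with 5.39, 5.46 and 5.55, and by Slc12a1, the cotransporter blocked by furosemide, with 4.59, 3.87 and 4.56. Cldn10, a tight junction gene, stood at percentile 88.2.

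The podocyte list was detected for 10 of 11 members, at a median of 52.6, and Magi2 was above background on no array. Cdkn1c, a cell cycle inhibitor, gave 5.59, 4.59 and 4.47, and Wt1, a podocyte and progenitor transcription factor, gave 4.91, 3.77 and 3.16. WT1 was the highest array for all 10 detected members, where it was so for 33.4% of all detected genes. The nephron progenitor list stood at 41.0 with 12 of 13 detected, and was led by Eya1 with 4.60, 4.92 and 4.77.

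The stroma list stood at 53.4 with 15 of 16 detected and Tbx18 on no array. It was led by the collagen gene Col1a2 at 5.30, 4.53 and 3.85. Aldh1a2, an enzyme of retinoic acid synthesis, came next with 3.37, 3.31 and 3.08 and spanned 0.30 between arrays. The collagen genes Col3a1 and Col1a1 followed at 4.13, 2.98 and 2.04 and at 3.91, 3.05 and 2.02. WT1 was the highest array for 15 of 15 detected members, against the same 33.4%. The endothelial list stood at 67.6 with 15 of 15 detected. Egfl7, a secreted factor of vessels, gave 6.16, 6.45 and 6.35, the guidance receptor gene Robo4 gave 3.70, 4.11 and 3.93, and the endothelial claudin gene Cldn5 gave 3.73, 3.76 and 3.31. The smooth muscle and the urothelium lists both stood at 36.3 and the immune list at 31.2. Myl9, a myosin light chain, led the first with 5.23, 4.28 and 4.71, and Upk1a, a uroplakin, the second with 3.37, 2.64 and 3.94. Itgam, a leukocyte integrin, led the third with 5.44, 5.92 and 5.47 from the 1 of its 3 probes that was detected. The B cell gene Cd79a was above background on no array.

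The erythroid list was detected for 6 of 9 members, at a median of 81.2. Hba-a2 gave 8.62, 7.79 and 8.99 and Hba-a1 gave 6.94, 5.54 and 7.10, globin genes so alike that their probes may share transcripts. Hbb-y and Epb42 were above background on no array. Of the nerve list 3 of 8 genes were detected, led by the synaptic gene Snap25 with 5.00, 5.60 and 5.16, with S100b and Elavl3 above background on no array. In RNA of a sorted population, fewer cells of a type and less RNA per cell cannot be told apart, and neither can cells that passed the sort and RNA carried along with it.

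The proliferation list stood at 72.5 with 15 of 16 detected, and Aurkb was above background on no array. Pcna, the sliding clamp of DNA replication, gave 4.57, 4.65 and 4.41, the nucleotide reductase subunit gene Rrm2 gave 4.55, 4.40 and 4.50, and Mki67 gave 3.94, 4.13 and 4.08. The arrays lay within 0.24 of each other for these 3 genes.

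**Figure D2:**
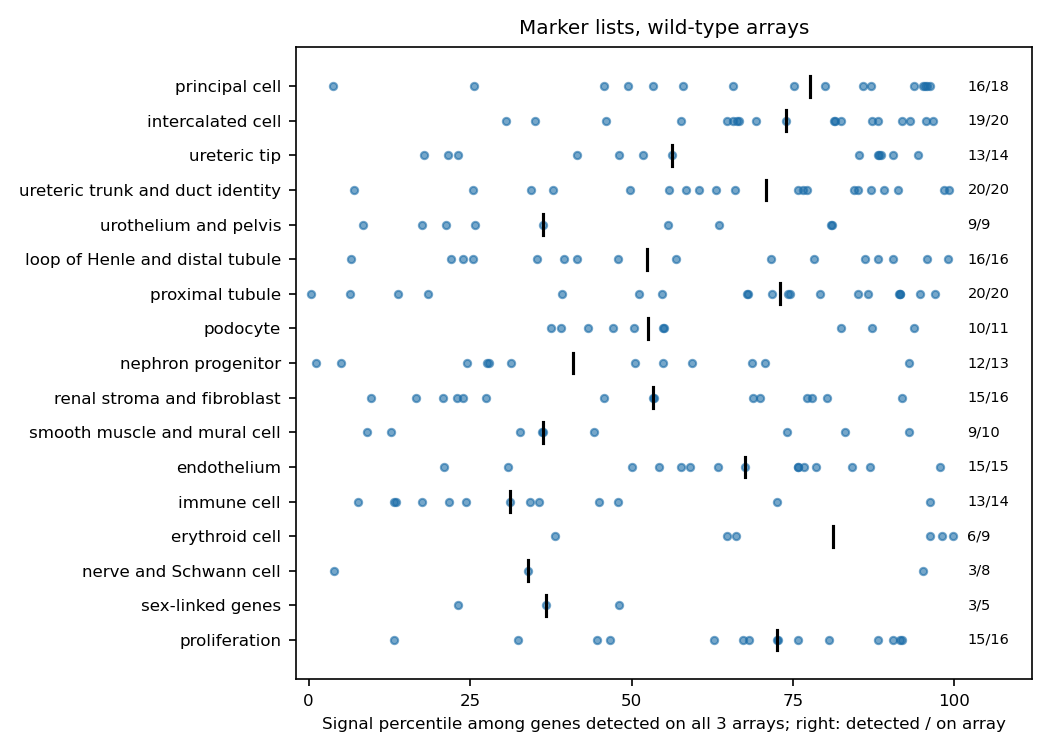
Signal percentile (horizontal axis) of each detected member of the marker lists, with the list's median as a bar and the number detected of those on the array at the right. The principal cell median lies at 77.6, that of the proximal tubule at 73.0 and that of the immune list at 31.2.

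Families of related genes were compared by the signal of their brightest and next detected members. The sodium pump drives sodium out of the cell across the basolateral membrane. Its beta subunit gene Atp1b1 gave 7.47, 7.18 and 7.68, above Atp1b3 with 2.96, 3.08 and 3.16, while Atp1b4 was above background on no array. The gap was 4.38 ± 0.24 (SD, n = 3), and 10.8% of genes with several detected probes had a gap as large between their own probes. Of the FXYD regulators, Fxyd2, the gamma subunit of the pump, gave 8.62, 8.38 and 8.94 and stood above Fxyd4 by 3.39 ± 0.25 (SD, n = 3). Fxyd7 was above background on no array.

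Over all families, 17 of 46 gaps between the brightest and the next member passed the median gap of same-gene probes, and 4 passed the 90th percentile. Among those 4 were Pax8 over Pax2, Eno1 over Eno3 and Atp6v1g1 over Atp6v1g3. Pax8, a transcription factor of kidney epithelia, gave 2.97, 3.06 and 2.97, and Pax2, its close relative, gave -2.76, -2.67 and -2.29, a gap of 5.57 ± 0.27 (SD, n = 3). Pax1, Pax3, Pax4, Pax5, Pax6, Pax7 and Pax9 were above background on no array. Eno1, the ubiquitous enolase of glycolysis, stood 4.76 above the muscle enolase Eno3, and Eno4 was above background on no array. The gap kept its sign on all 3 arrays in 42 of the 46 families. Each pair was picked by its mean over these same arrays, so this count is no check of the order.

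**Figure D3:**
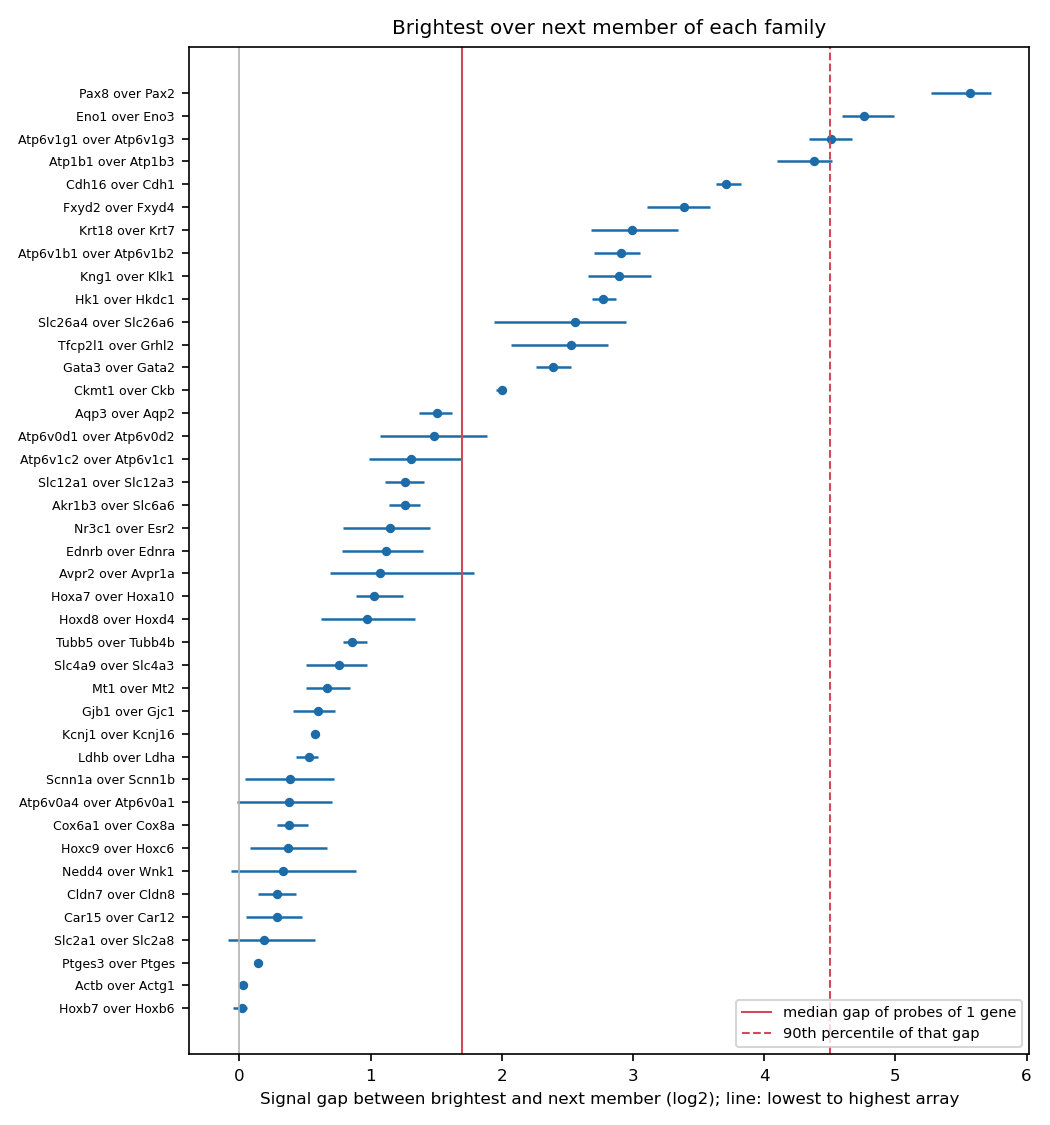
Difference in signal (log2, horizontal axis) between the brightest and the next detected member of each family shown, as the mean over 3 arrays with a line from the lowest to the highest array. The vertical lines mark the median (1.70) and the 90th percentile (4.50) of the gap between probes of 1 gene, and Pax8 over Pax2 lies at 5.57.

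Among water and sodium channels the gaps were small. Aqp3 stood above Aqp2 by 1.51 ± 0.13 (SD, n = 3), under the median gap of same-gene probes. Aqp9 and Aqp12 were above background on no array. Scnn1a and Scnn1b, the alpha and beta subunits of the sodium channel, gave 3.23, 2.89 and 3.58 and 2.82, 2.86 and 2.86, and their order rests on 0.39 ± 0.34 (SD, n = 3). Kcnj1 and Kcnj16 lay 0.58 apart, with Kcnj16 at 5.16, 4.54 and 5.35, while Kcnj2, Kcnj11, Kcnj12 and Kcnj14 were above background on no array. Bsnd, the chloride channel subunit barttin, gave 4.69, 4.27 and 4.91. Clcn1 was above background on no array.

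The kinases and ligases that set sodium channel and cotransporter activity were led by Nedd4 with 5.09, 5.02 and 4.74 and by Wnk1 with 4.92, 4.14 and 4.80, and Wnk3 was above background on no array. Slc12a1 stood 1.26 ± 0.15 (SD, n = 3) above Slc12a3, the thiazide-sensitive cotransporter, which gave 3.34, 2.45 and 3.45. Of the sodium-proton exchangers, Slc9a8 gave 3.32, 3.32 and 3.41, and Slc9a3, the main apical exchanger of the proximal tubule, was above background on no array, as were Slc9a4, Slc9a5 and Slc9a9. The detected proximal tubule markers above stand beside that value.

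The vacuolar proton pump has subunits with a widespread and a tissue-restricted form. Atp6v1b1, the restricted B subunit, stood above the widespread Atp6v1b2 by 2.91 ± 0.18 (SD, n = 3). Atp6v0a4, also restricted, gave 3.37, 2.96 and 3.77 beside Atp6v0a1 with 2.93, 2.97 and 3.05, and their order turned on the array of WT2. Atp6v1c2 stood above Atp6v1c1 by 1.31 ± 0.35 (SD, n = 3). For the d and G subunits the widespread form was the brighter, Atp6v0d1 over Atp6v0d2 by 1.48 ± 0.41 (SD, n = 3) and Atp6v1g1 over Atp6v1g3 by 4.51 ± 0.16 (SD, n = 3). Atp6v1e2, the testis form of the E subunit, was above background on no array, while Atp6v1e1 gave 5.02, 4.51 and 5.00. Of these gaps those of the B and G subunits passed 1.70. Between their own probes, 28.8% and 9.99% of genes with several detected probes had gaps as large as these.

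In the families of acid-base transport the brightest members were Car15, Slc4a9 and Slc26a4. Car15, a membrane-bound carbonic anhydrase, gave 5.59, 5.34 and 5.98 and lay 0.29 above Car12. Car1, Car5a, Car6, Car9 and Car10 were above background on no array. Slc4a9 stood above Slc4a3 by 0.76 ± 0.23 (SD, n = 3), and Slc4a10 was above background on no array. Slc26a4, the anion exchanger pendrin of base-secreting cells, gave 3.66, 2.77 and 3.90 and stood above Slc26a6 by 2.56 ± 0.54 (SD, n = 3), while Slc26a3, Slc26a5 and Slc26a9 were above background on no array.

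**Figure D4:**
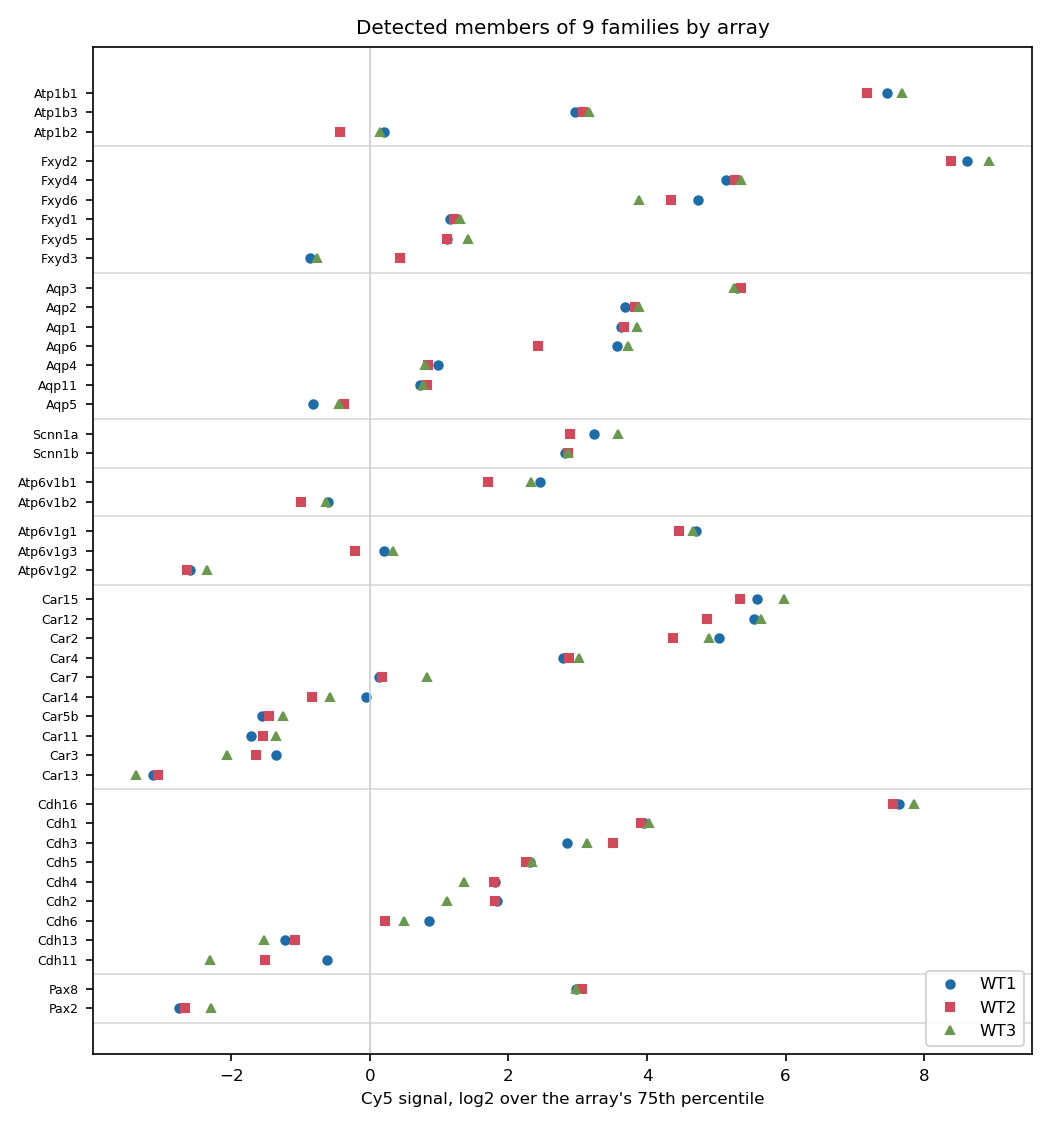
Cy5 signal (log2 over the array's 75th percentile, horizontal axis) of the detected members of 9 families on the arrays of WT1 (circles), WT2 (squares) and WT3 (triangles). Pax8 and Pax2 lie 5.57 apart, while Aqp3 and Aqp2 lie 1.51 apart.

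Among genes of cell contact and the cytoskeleton the epithelial forms Cdh16 and Krt18 led their families. Cdh16 stood above Cdh1, the epithelial cadherin, by 3.71 ± 0.10 (SD, n = 3). Cldn7 and Cldn8, tight junction genes of the distal nephron, gave 4.91, 5.18 and 5.06 and 4.77, 4.76 and 4.75. Cldn13, Cldn18, Cldn20 and Cldn22 were above background on no array. Krt18 stood above Krt7 by 2.99 ± 0.33 (SD, n = 3), with Krt1, Krt4 and Krt6a on no array. Gjb1, which encodes connexin 32, stood 0.60 above Gjc1, with Gjb5 and Gjd2 on no array. Tubb5 stood 0.86 above Tubb4b among beta tubulins, with Tubb1 on no array, and the cardiac actin gene Actc1 was also on no array.

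Among transcription factor families the gap ranged from that of Pax8 over Pax2 down to the Hox B cluster. Hoxb7 and Hoxb6 lay 0.02 apart, in an order that turned with the array, and Hoxb1 and Hoxb13 were above background on no array. Hoxa7, Hoxc9 and Hoxd8 were the brightest of their clusters, at 3.39, 3.38 and 3.67, at 2.07, 1.74 and 1.43, and at 4.18, 3.90 and 4.10. The genes Hoxa13, Hoxc13 and Hoxd13 at the far end of the other clusters were also above background on no array. Gata3 stood above Gata2 by 2.39 ± 0.14 (SD, n = 3), with Gata1 and Gata4 on no array. Tfcp2l1 stood above Grhl2, another factor of its family, by 2.53 ± 0.40 (SD, n = 3). Hnf4a, a factor of the proximal tubule and liver, gave 3.36, 2.26 and 2.78 and was the brightest of its list, while Hnf4g, Foxa2, Foxa3 and Onecut1 were above background on no array.

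Hormone and mediator systems held the receptor that the series is about. Bdkrb2 and Bdkrb1, the bradykinin receptors, were above background on no wild-type array. Each had 1 probe, so this does not show that the transcripts were absent. Kng1, the kininogen from which bradykinin is cut, gave 7.48, 6.79 and 7.64, above Klk1, the kallikrein that cuts it, with 4.82, 3.65 and 4.78. That order reversed when Kng1 was taken at the mean of its probes, since its dimmest detected probe stood at percentile 18.7. Avpr2, the vasopressin receptor of principal cells, gave 1.59, 1.73 and 1.70 and stood above Avpr1a by 1.07 ± 0.63 (SD, n = 3), with Avpr1b on no array. Nr3c1, the glucocorticoid receptor, gave 3.56, 3.19 and 3.49 and stood above Esr2 by its brightest probe only. Ptges3 and Ptges lay 0.14 apart. Ednrb, the endothelin B receptor, gave 1.49, 1.39 and 1.51, above Ednra with 0.70, 0.22 and 0.11, while Edn3 and Ece2 were above background on no array.

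Several metabolic genes were among the brightest percentile of detected genes. Aldoa, the muscle-type aldolase of glycolysis, gave 7.70, 7.58 and 7.93. Ldhb and Ldha lay 0.53 ± 0.09 (SD, n = 3) apart at percentiles 99.1 and 98.7, and Ldhc, the testis form, was above background on no array. Hk1 stood above Hkdc1 by 2.77 with its brightest probe, and below it with its dimmest. Ckmt1, the mitochondrial creatine kinase, gave 4.32, 3.96 and 4.66 beside Ckb with 2.36, 1.93 and 2.63, while Ckm and Ckmt2 were above background on no array. Slc2a1 and Slc2a8, glucose transporters, lay 0.19 apart. The metallothionein genes Mt1 and Mt2 gave 7.96, 7.43 and 8.31 and 7.31, 6.92 and 7.47, with Mt4 on no array. Akr1b3, the aldose reductase that makes sorbitol as an osmolyte, gave 4.49, 4.43 and 4.55, above the taurine transporter gene Slc6a6 with 3.11, 3.29 and 3.29. Cox6a1 gave 8.67, 8.41 and 8.78 as the brightest of the cytochrome oxidase isoforms, while Cox6a2, Cox8b and Cox8c were above background on no array.

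The 3 wild-type samples lay further apart in genes of stroma, nephron tubules and ureteric tip than in genes of principal cells. Among the detected genes 618 (4.54%) spanned more than 1 log2 between arrays, where the WT1 RNA in Cy3 did so for 0.602%. With 1 array left out the count was 220 without WT1, 254 without WT2 and 413 without WT3. It was 258 with normexp background correction of the median signals, and 1305 when detection on at least 1 array sufficed. Among the stroma markers 13 of 15 spanned more than 1, among the proximal tubule markers 12 of 20, and among the principal cell markers 0 of 16. Among the dimmest 3403 genes 10.8% did so, and among the brightest 3403 the share was 1.53%.

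The stroma list was lower by a median of 0.88 in WT2 and 1.39 in WT3 than in WT1, and the WT1 RNA in Cy3 gave -0.02 between each of these pairs of arrays. Of its 15 detected members 7 were lower in WT2 by more than 1, where 1.92% of all detected genes were, and 12 were lower in WT3, where 1.43% were. The podocyte list gave -1.05 and -1.02. The smooth muscle list gave -0.74 and -0.60, and the immune list -0.36 and -0.64. All 4 lists were thus highest in WT1 by these medians.

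The tubule lists set WT2 apart. The proximal tubule list gave -1.02 in WT2 and -0.19 in WT3 relative to WT1, the loop and distal tubule list -0.68 and 0.09, and the intercalated cell list -0.50 and 0.22. The erythroid list gave -1.31 and 0.34, and it shares Slc4a1, an exchanger of red cells and acid-secreting cells, with the intercalated list. The tip list went the other way, with 0.89 and 0.32, and 5 of its 13 detected members were higher in WT2 than in WT1 by more than 1, where 1.06% of all detected genes were. The principal cell list gave 0.05 and 0.10, the proliferation list 0.04 and 0.03 and the endothelial list 0.00 and 0.11. The median over all detected genes was 0.00 in both cases. WT1 lay in row 1 of the slide and WT2 and WT3 in row 2, so slide row and sample cannot be told apart in the differences from WT1. WT2 and WT3 shared a row, and WT2 minus WT3 gave -0.74 for the proximal tubule list, -0.67 for the intercalated list, -1.57 for the erythroid list and 0.62 for the tip list. The WT1 RNA in Cy3 was on each array. Relative to the array of WT1 it gave between 0.01 and 0.10 for these lists on the arrays of WT2 and WT3. Its difference between the arrays of WT2 and WT3 was not computed.

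**Figure D5:**
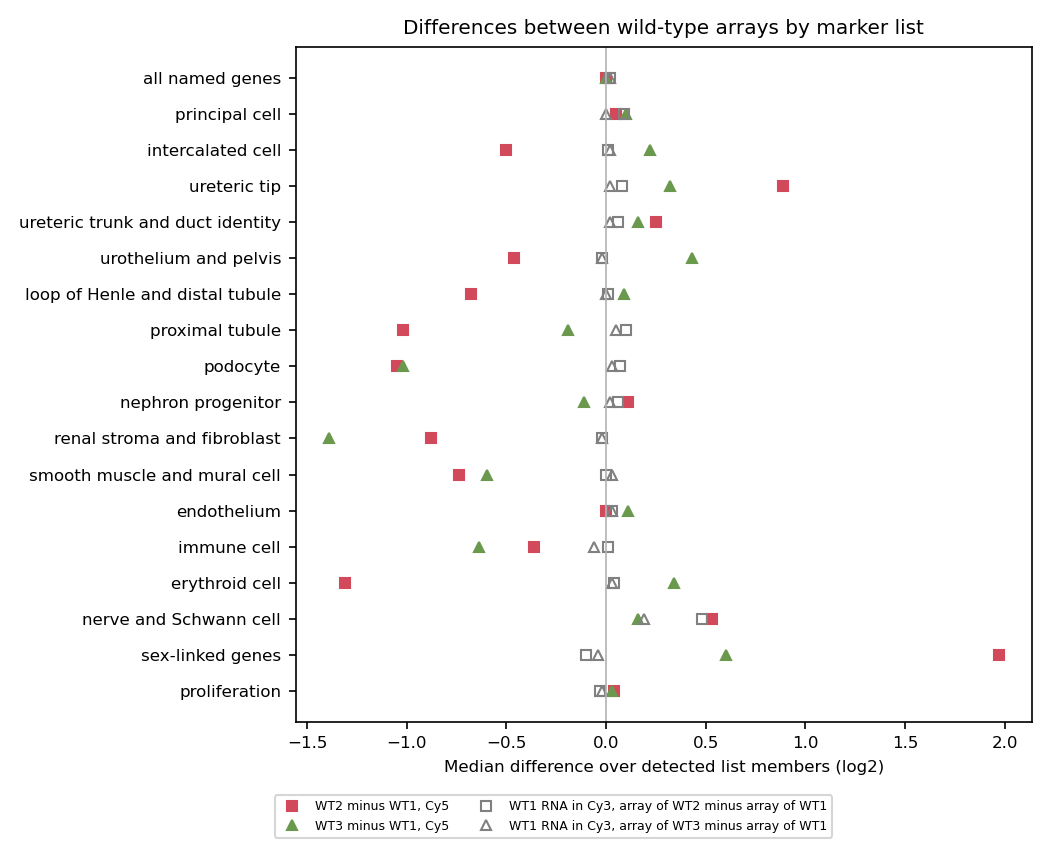
Median difference in log2 signal (horizontal axis) over the detected members of each marker list, WT2 minus WT1 (squares) and WT3 minus WT1 (triangles), filled for the sample RNAs in Cy5 and open for the WT1 RNA in Cy3 on the same arrays. The stroma list lies at -0.88 and -1.39, the tip list at 0.89 and 0.32, and the principal cell list at 0.05 and 0.10.

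The genes of widest span among the brighter genes were chosen for that span, with WT1 as the highest or the lowest array. Of those named below, Col3a1, Col1a1 and Dcn were on the stroma list, Ret on the tip list and Krt5 on the urothelium list. The others named were on no cell list. With WT1 highest the genes of widest span included the matrix genes Col3a1, Col1a1, Dcn and Mfap4. They also included the myeloid genes S100a8, S100a9, Stfa1, Stfa2 and Cstdc5. S100a9, a calcium-binding protein of neutrophils, gave 5.00, 3.87 and 2.96. Dcn, the matrix proteoglycan decorin, gave 3.42, 2.25 and 1.48. The stefin genes Stfa1 and Stfa2 and their relative Cstdc5 are near copies, so their probes may share transcripts.

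With WT1 lowest the genes of widest span included Krt23, Rprm, Mia, Ret, Mrgprg, Lcn2, Krt5, Aldh1a1 and Map6d1. Krt23, a type I keratin, gave 2.03, 4.24 and 2.65. Rprm, a cell cycle inhibitor, gave 3.20, 5.07 and 3.55, and Lcn2, which encodes the iron-carrier protein lipocalin-2, gave 1.70, 3.39 and 2.28. WT2 was the highest array for each of these genes.

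Sex-linked transcripts were present in each sample. Xist, the RNA of the inactive X chromosome, gave 1.45, 0.59 and 1.02, and the Y-linked gene Eif2s3y gave -0.66, 1.47 and -0.06. Ddx3y, also Y-linked, gave -1.72, 0.25 and -1.09, and Uty was above background on no array. WT2 was the lowest array for Xist and the highest for both Y-linked genes, and the part of sex in the differences above was not tested.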

How the data were processed

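Files of the 3 wild-type arrays were used, and the Cy3 channel of all 6 for technical spread. Each held 62976 spots, 3671 of them controls, and 55681 non-control probes. The deposited intensities, background-subtracted and dye-normalised per the file headers, are from Agilent Feature Extraction 10.7.3.1. Version 6.1 is given in the submitters' processing notes. The deposited log10 ratio of Cy5 over Cy3, per the file headers, served as an alternative only. Cy5 processed signal was put on the log2 scale, spots of a probe were averaged, and each array's 75th percentile was subtracted. A probe was detected on an array where at least as many of its spots were flagged well above background as not. The brightest detected probe stood for a gene.

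Accessions matched a RefSeq table of GRCm38.p6, used for names only, for 27503 probes and left 28178 unnamed. No outcome was compared between genotypes and no test was run, because the description is of 1 group and values are means, SDs and ranges of 3 arrays, whose number limits precision. Of 549 list genes 543 were on the array and 435 were detected. Named were the 6 markers, the 30 brightest genes without clone or predicted names, up to 5 brightest members and those on no array per cell list, the brightest 2 members and those on no array per family, and 10 genes of widest span in each direction. Other genes are said to be chosen later. Some genes are not reported here. The members and lists were chosen with earlier results of these data known. The first listed start stood for a promoter. Python 3.11.15, pandas 2.3.3, numpy 2.4.6 and, for normexp, limma 3.58.1 in R 4.3.3 were used, and the steps were tested on simulated data. Alternatives were the background correction, channel, probe, filter, scaling and leaving out each array.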

Additional observations from a re-analysis of the deposited data

Results flagged for a closer look

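Probes without a gene name also gave signal. Of 28178 unnamed probes 8226 (29.2%) were well above background on all 3 wild-type arrays, where at most 1.95% of negative control spots were on any 1 array. Probes designed for intervals named by chromosome position were detected in 22.9% of cases (3707 of 16194). No transcript was assigned to them here.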

How the results depend on the processing

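With 3 arrays and 1 probe per gene, precision is limited by their number and by probe choice. The count of detected genes stayed within 1.5 times under every alternative run for it. The median percentile of the principal cell list was 79.7 in Cy3 and 80.7 with no detection filter. Without that filter more dim genes enter the ranking. The intercalated, loop and distal tubule, proximal tubule and stroma lists then stood at 81.4, 69, 82.4 and 67.1. The proximal tubule list thus lay above the principal cell list without the filter, and below it with the filter. By dimmest detected probes the stroma list stood at 63.4. The order of the brightest family members never reversed in 37 of 46 families. With normexp the gap became -0.02 for Actb over Actg1, -0.02 for Hoxb7 over Hoxb6, -0.07 for Ptges3 over Ptges and -0.07 for Slc2a1 over Slc2a8, the last ranging from -0.01 to 0.33 with arrays left out. In Cy3 it became -0.10 for Hoxb7 over Hoxb6. By the mean of probes it became -0.61 for Nr3c1 over Esr2, -1.72 for Kng1 over Klk1 and -0.07 for Akr1b3 over Slc6a6. By the dimmest probe these 3 became -2.38, -6.33 and -1.40, Ednrb over Ednra became -0.04 and Hk1 over Hkdc1 became -1.54. Genes spanning over 1 log2 numbered 258 with normexp, 1305 when detection on at least 1 array sufficed, and 220 to 413 with arrays left out, where fewer samples enter. With normexp the tip differences were 0.75 (WT2) and 0.23 (WT3), and those of stroma -0.70 and -1.04. With the deposited ratio the tip value of WT2 was 0.74, and the nerve list became -0.01 and -0.18. Causes were not tested where none is given. No paired analysis was possible because only 1 group was described and no test was run.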
